A study of Capsicum annuum with 5 samples.

Results

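The mature miRNAs of pepper fruit (Capsicum annuum) were compared with those of root, stem, leaf and open flower. All plants belonged to the inbred line Zunla 1, and each tissue was represented by 1 small RNA library, so fruit is 1 of the 5 libraries. Fruits came from self-pollinated flowers. The labels disagree on their stage: the sample label calls the fruit mature green, whereas the series text describes fruit at the breaker stage, turning red 30 days after pollination. Developing roots, developing stems and mature leaves were taken at full bloom from soil-grown greenhouse plants held at 22 °C with 16 h of light, and the flowers were fully open. No growth temperature or light is recorded for the fruit and flower samples. The deposited annotation lists miRNAs only, so no marker gene was at hand against which to check the fruit label.

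Plant miRNAs are cut from hairpin transcripts by DICER-LIKE proteins, mostly DCL1. A short duplex is released, its guide strand is loaded into an ARGONAUTE protein, usually AGO1, and the passenger strand is mostly degraded. The guide silences transcripts to which it pairs along nearly its whole length. In tomato, a relative of pepper, several conserved families act on regulators of fruit growth and ripening: miR156 and its relatives target SPL genes including CNR, miR172 targets AP2-like factors, miR164 targets NAC factors, and miR167 and miR160 target auxin response factors.

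Every line typed as a mature 5′ or 3′ sequence was taken, 314 in all, and each distinct sequence was counted once per family. This left 245 sequences in 64 families, of which 35 have a number and 29 are candidates named miRC. Fruit had tags for 118 of the 245 sequences and 42 of the 64 families, against 119 sequences in root, 126 in stem, 143 in leaf and 147 in flower. The tags came to 311417 in fruit, 231560 in root, 318815 in stem, 542531 in leaf and 678695 in flower. Tags were divided by these listed totals and are given as normalised tags, meaning tags per 1000000 listed tags of the library. The totals cover annotated miRNAs and are not the sequencing depth. With 1 library per tissue there is no replicate error and no test. The 95% intervals cover counting error only, and no molecular identifiers are recorded, so tags may include copies of the same molecule.

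The sequences on which the fruit profile turns are printed as deposited, in DNA letters from 5′ to 3′, with bases 2 to 8 (the seed) in capitals. The first group holds leading sequences of some of the families that were most abundant or highest in fruit. That of miRC16 is given near the end, and that of miRC19 is not printed.
miR166a to miR166g, 3′ arm: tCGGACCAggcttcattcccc
miR166h and miR166i, 3′ arm: tCGGACCAggcttcattcctc
miR167a to miR167d, 5′ arm: tGAAGCTGccagcatgatcta
miR168a, 5′ arm: tCGCTTGGtgcaggtcgggac
miR396a and miR396b, 5′ arm: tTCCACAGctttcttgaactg
miR396c, 5′ arm: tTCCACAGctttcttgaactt
miR396d, 5′ arm: tTCCACAGctttcttgaacta
miR399e, 5′ arm: gGGCGACTctctattggcatg
miRC7, 3′ arm: tTATGAGAtaagttcaacacg
miRC17a and miRC17b, 5′ arm: tCTGGACAacatgcgaggata
The next group holds the leading fruit sequences of families with less in fruit than elsewhere, with the 3 forms of miR156 that changed places between tissues.
miR156h, 5′ arm: tTGACAGAagagagtgagcat
miR156a to miR156c, 5′ arm: tTGACAGAagatagagagcac
miR156d to miR156f, 5′ arm: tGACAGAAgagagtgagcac
miR5301, 5′ arm: tGTGGGTGgggtggaaagatt
miR4376, 5′ arm: aCGCAGGAgagatgatgctgga
miR397a, 5′ arm: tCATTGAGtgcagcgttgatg
miR398c, 5′ arm: gGGGCAATctgagatcacatg
miR408, 5′ arm: aCAGGGACgaggcagcgcatg
The 118 fruit sequences carried 93 different seeds. No seed was shared between families, and 13 seeds were shared by several sequences of the same family.

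A few families made up most of the fruit tags. miR166, which restrains class III HD-ZIP factors of leaf and vascular patterning, held 62.3% of the fruit tags (62.2 to 62.5, Clopper-Pearson), against 36.2% in root, 44.7% in stem, 32.2% in leaf and 40.7% in flower. miR168, which targets AGO1 itself, followed with 13.6% in fruit, against 27.6% in root, 12.8% in stem, 15.3% in leaf and 14.6% in flower. miR167, a regulator of the auxin response factors ARF6 and ARF8, held 12.9% in fruit (12.8 to 13.0), against 2.76% in root, 0.164% in stem, 3.14% in leaf and 5.76% in flower. The candidate miRC16 and miR156 came next in fruit with 3.54% and 2.22%. By these shares fruit resembled the other tissues in miR168 outside root, and stood apart by much miR166 and miR167 and little miR156. The miR166 lead did not hold under every scaling, as given below. Its 3 leading sequences held 74.4% of its tags, against 61.2% in root, 56.0% in stem, 47.0% in leaf and 72.7% in flower. Weighed by their shares (the exponential of the Shannon index), the fruit tags were spread as over 6.71 equally abundant sequences, against 11.5 in root, 11.4 in stem, 13.5 in leaf and 6.77 in flower.

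**Figure D1:**
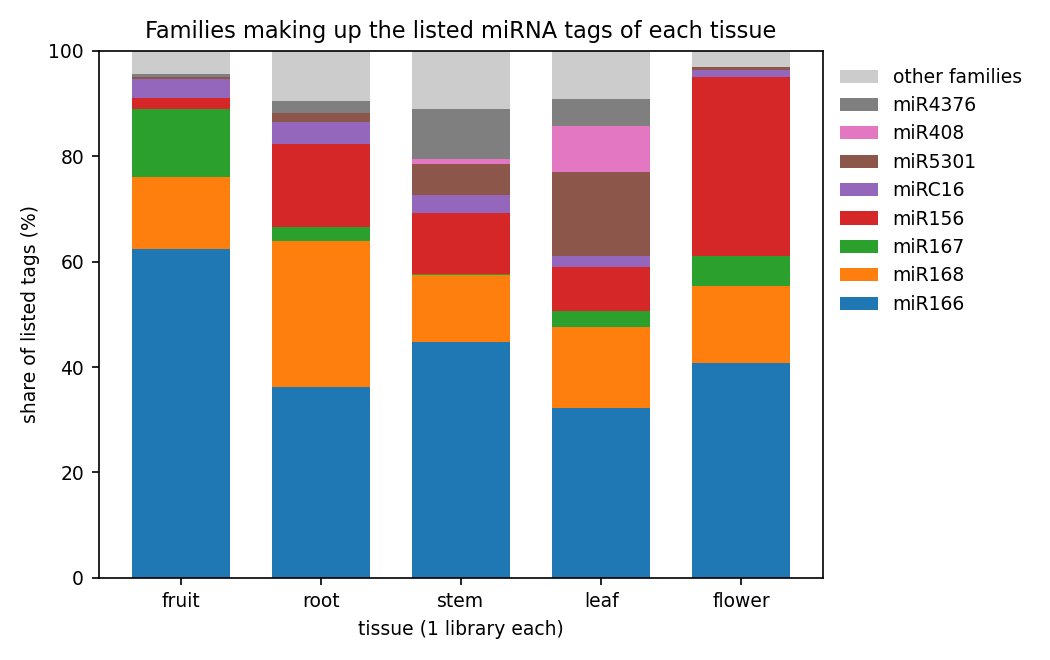
Stacked bars give the share of listed tags (%) held by 8 families and by all others in each tissue, 1 library each. The fruit bar has the largest miR166 and miR167 parts (62.3% and 12.9%) and the smallest miR156 part (2.22%).

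Families were compared by the fold between fruit and the mean of the normalised values in the other 4 tissues, for the 57 families with at least 10 tags over the libraries. A family is called past 4-fold. Hairpin totals of 1 to 4 tags were nearly missing from the annotation (1 of 825 totals), so a zero may stand for a few tags: it is reported as listed at 0, is taken as 4 tags in the 4-fold criterion and has no fold set against it. Fruit was higher than the others in 4 families, miR167, miR399, miRC7 and miRC17 (7.02% of the 57). It was lower in 17 families (29.8%). The median family lay 1.40 log2 units under the mean of the others on the scale log2(normalised tags + 1). The median was also negative for the other tissues, each set against the remaining 4: -0.31 in root, -0.18 in stem, -0.62 in leaf and -2.10 in flower. On the same criterion root had 10 families higher and 9 lower, stem 6 and 9, leaf 6 and 10, and flower 4 and 23. Of single sequences with at least 10 tags, 159 in all, 4 were higher in fruit (2.52%) and 44 lower (27.7%).

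Of the families past 4-fold in either direction, miR167 had the most tags in fruit. It had 40262 tags in fruit, 6393 in root, 522 in stem, 17042 in leaf and 39075 in flower, or 129286 normalised tags in fruit, 27608 in root, 1637 in stem, 31412 in leaf and 57574 in flower. Fruit was highest, flower second and stem far below the rest. The fold was 4.37 over the mean of the others, 2.25 over flower (2.21 to 2.28) and 79.0 over stem (72.4 to 86.2). All fruit tags were the same 5′ sequence, listed with the same fruit count at 4 hairpins, of which 3 lie on chromosome 3 (208182142 to 208182225, 208519344 to 208519455 and 261302923 to 261302997) and 1 on chromosome 6 (1389636 to 1389718). The genome build was not given in the sources used here. The tags cannot be divided among these hairpins, and the 3′ arm of miR167 was listed at 0 in fruit. Fruit kept the highest value under the 4 ways of scaling tried (listed totals, median of ratios, totals without miR166, and tags summed over hairpins), with a lead over flower of 1.25-fold to 3.54-fold, but the fold over the mean of the others passed 4 under only 2 of them and ranged from 3.41 to 7.24. With stem left out of the mean the log2 difference was 1.73 in place of 2.13, which is under 4-fold.

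miR399, which acts on the ubiquitin-conjugating enzyme PHO2 in phosphate balance, had 166 tags in fruit, 21 in root, 11 in stem, 85 in leaf and 154 in flower. That is 533 normalised tags in fruit, 90.7 in root, 34.5 in stem, 157 in leaf and 227 in flower, so fruit was highest. It was 2.35-fold over flower (1.88 to 2.94) and 4.19-fold over the mean of the others, with a range of 3.42 to 6.92 over the scalings, past 4 under 2 of them. The log2 difference, 2.06, was 1.93 without root and 1.75 without stem, both under 4-fold. Most of these fruit tags, 124, were the 5′ sequence of miR399e (chromosome 3, 66808532 to 66808639), which is the passenger arm. The guide arm of the family, all forms together, had 36 tags in fruit, 14 in leaf and 58 in flower and was listed at 0 in root and stem. In normalised tags the guide arm had 116 in fruit and 85.5 in flower, so its lead rested on few tags.

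No role is given for the candidates miRC7 and miRC17. miRC7 (chromosome 5, 169067983 to 169068153) had 126 tags in fruit, 97 in stem and 38 in leaf, and root and flower were listed at 0. After normalisation fruit was 1.33-fold over stem (1.01 to 1.75), so it was high in fruit and stem together. The log2 difference from the mean of the others, 2.10, was 1.69 without root, 1.69 without flower and 1.99 without leaf, each under 4-fold, and 1.84 with tags summed over hairpins. Its 3′ sequence had 123 tags in fruit and 94 in stem, and 0 elsewhere. miRC17 had 18 tags in fruit, and every other tissue was listed at 0. Its hairpins miRC17a (479287409 to 479287498) and miRC17b (479397163 to 479397253) lie on the sequence named Chr00, and 17 of the 18 tags were the same 5′ sequence.

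Fruit had the highest normalised value of 7 families (12.3% of the 57), the 4 above and miR166, miR396 and miRC19. miR396, which limits the growth-regulating factors, had 11522 normalised tags in fruit, 4971 in root, 8328 in stem, 9076 in leaf and 4924 in flower. Its lead over leaf was 1.27-fold (1.22 to 1.33). With tags summed over hairpins leaf was higher, and the fruit value was 0.915 times that of leaf. The guide arm alone gave a clearer order, with 10080 normalised tags in fruit, 3364 in root, 5226 in stem, 4132 in leaf and 3379 in flower. miR166 was 1.40-fold over stem (1.39 to 1.40), flower was above fruit under median-of-ratios scaling, and fruit and stem were equal (ratio 1.00) with tags summed over hairpins. miRC19 had 11 tags in fruit and 14 in leaf, and its interval for fruit over leaf (0.562 to 3.25) includes equality. Fruit was highest under all 4 scalings for miR167, miR399, miRC7 and miRC17, the last of which had tags in fruit alone. The lead of miR399 over flower fell to 1.31-fold (1.04 to 1.64) with median of ratios. For miRC7 with tags summed over hairpins, the interval of fruit over stem (0.919 to 1.59) includes equality.

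**Figure D2:**
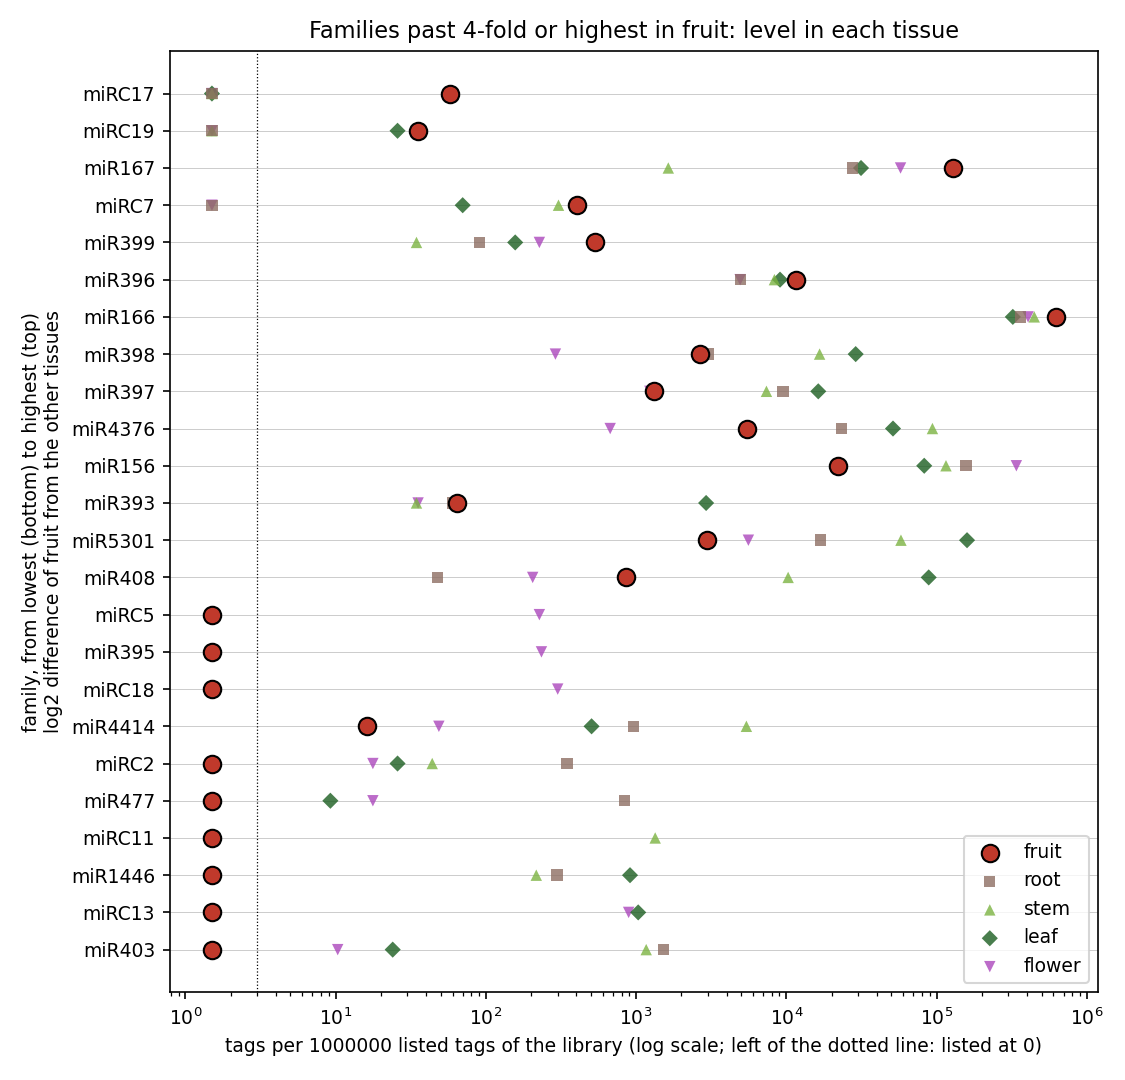
Each row is a family past 4-fold or highest in fruit, and each symbol gives its tags per 1000000 listed tags (log axis) in 1 library, with values listed at 0 left of the dotted line, where symbols overlap. Fruit (large circles) lies right of all other tissues in the 7 upper rows and is listed at 0 for 9 of the families in the lower rows.

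Of the 17 families that regulate developmental genes and were looked for, 14 were listed and all had at least 10 tags. In fruit 1 of them was higher (miR167) and 2 lower (miR156 and miR393), beside 7.02% and 29.8% of all families. The median of the list was -0.58 log2 units, against -1.40 over all 57 families. As a group they held 80.6% of the tags in fruit, 59.7% in root, 63.0% in stem, 47.0% in leaf and 82.7% in flower. Most of the fruit share was miR166. With miR166 removed from the list and the totals they held 48.5% in fruit, 36.8% in root, 33.0% in stem, 21.9% in leaf and 70.8% in flower.

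miR156, whose SPL targets promote phase change and flowering, was lowest in fruit. It had 6911 tags in fruit, 36277 in root, 36830 in stem, 44894 in leaf and 230630 in flower, or 22192 normalised tags in fruit, 156663 in root, 115522 in stem, 82749 in leaf and 339814 in flower. The other tissues all lay above fruit, from 3.73-fold in leaf (3.64 to 3.83) to 15.3-fold in flower (15.0 to 15.7). Against the mean of the others the log2 difference was -2.97, and between -3.76 and -2.29 over the 4 scalings.

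miR393, which targets the TIR1 and AFB auxin receptors, had 20 tags in fruit, 14 in root, 11 in stem, 1586 in leaf and 24 in flower. Leaf alone stood apart, all leaf tags were of the passenger arm, and without leaf the log2 difference was 0.55 in place of -3.55. The intervals of fruit over root (0.510 to 2.27), stem (0.850 to 4.30) and flower (0.951 to 3.43) all include equality.

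The remaining development families did not pass 4-fold. miR172 had 5427 normalised tags in fruit, 29750 in root, 11057 in stem, 10886 in leaf and 4118 in flower, so fruit and flower were low. miR164 had 7729 in fruit, 2608 in root, 34186 in stem, 3655 in leaf and 3227 in flower, where fruit was second to stem. miR390, which triggers TAS3 siRNAs that act on auxin response factors, had 1262 in fruit, 2855 in root, 6113 in stem, 4402 in leaf and 2262 in flower and was lowest in fruit. miR171, which targets GRAS factors, had 816 in fruit, 6914 in root, 794 in stem, 735 in leaf and 1929 in flower, so that fruit, stem and leaf lay together and root apart. The root value was mostly passenger tags (1471 of 1601). The miR171 guide arm alone had 315 in fruit, 561 in root, 232 in stem, 181 in leaf and 309 in flower. miR160 had 491 in fruit, 337 in root, 257 in stem, 730 in leaf and 1802 in flower. Of its 153 fruit tags 139 were passenger tags and 14 guide tags. miR159, which targets GAMYB-like factors, had 1561 in fruit, 1317 in root, 2362 in stem, 1001 in leaf and 1202 in flower. miR169, which targets NF-YA factors, had 1972 in fruit, 1196 in root, 2246 in stem, 761 in leaf and 2493 in flower. For miR159, miR160, miR164, miR169 and miR394 the sign of the difference between fruit and the mean of the others changed with the scaling. miR394, which targets an F-box gene, had 41 tags in fruit, 0 in root, 27 in stem, 55 in leaf and 228 in flower. After normalisation fruit was second to flower, with 132 in fruit, 84.7 in stem, 101 in leaf and 336 in flower. miR319, which targets TCP factors, had 8 tags in fruit, 73 in root, 22 in stem, 0 in leaf and 6 in flower.

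Of 12 families tied to fruit ripening in tomato, 10 were listed. In fruit 1 was higher (miR167) and 2 were lower (miR156 and miR393), beside 7.02% and 29.8% of all families, with a median of -0.43 log2 units against -1.40 over all families. They held 31.6% of the tags in fruit, 50.03% in root, 30.4% in stem, 29.7% in leaf and 56.2% in flower. With miR166, which is not in the list, removed from the totals they held 84.0% in fruit, 78.5% in root, 55.0% in stem, 43.7% in leaf and 94.7% in flower. No hairpin carried the number of miR157 or miR1917.

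Of the 5 listed families of copper and nutrient supply, 4 were lower (miR395, miR397, miR398 and miR408) and 1 was higher, beside 29.8% lower and 7.02% higher of all families, and the median was -2.72 log2 units against -1.40 over all families. The list held 0.537% of the tags in fruit (0.512 to 0.564), 1.27% in root, 3.43% in stem, 13.4% in leaf and 0.219% in flower. Fruit and flower thus had the smallest shares.

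miR408, which targets copper proteins such as plantacyanin, had 265 tags in fruit, 11 in root, 3277 in stem, 48090 in leaf and 139 in flower. Leaf was 104-fold over fruit (92.3 to 118) and stem 12.1-fold, while fruit was 17.9-fold over root (9.85 to 36.3) and 4.15-fold over flower (3.37 to 5.14). The fruit level was therefore low beside leaf and stem and high beside root and flower. Against the mean of the others the log2 difference was -4.86, and -2.04 with leaf left out of that mean. miR398, which targets copper/zinc superoxide dismutases, had 2681 normalised tags in fruit, 3032 in root, 16649 in stem, 28944 in leaf and 290 in flower, with root and fruit close together. It was no longer past 4-fold under median-of-ratios scaling (-1.59 log2 units), with miR166 removed from the totals (-1.45) or with leaf left out of the mean (-1.31), against -2.19 with listed totals. Laccases are the targets of miR397, which had 1307 normalised tags in fruit, 9509 in root, 7371 in stem, 16312 in leaf and 1235 in flower. With listed totals fruit and flower were thus alike within counting error (1.06-fold, 0.938 to 1.19). Median of ratios multiplies this fold by 0.557, which puts flower above fruit. The log2 difference of miR397, -2.72, became -1.97, just under 4-fold, once miR166 was removed from the totals. miR395, a regulator of sulfate assimilation, was listed at 0 in fruit and in every tissue but flower, which had 159 tags.

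Passenger arms held many of the tags of these families. Of the miR408 tags 262 of 265 in fruit were passenger tags (98.9%), and the guide arm had 3 tags in fruit, 0 in root, 2 in stem, 2 in leaf and 4 in flower. For miR398 the guide arm had 530 normalised tags in fruit, 354 in root, 1273 in stem, 673 in leaf and 94.3 in flower, a fold of 0.885 over the mean of the others. For miR397 the guide arm alone was still lower in fruit, with 1307 normalised tags, against 9509 in root, 7371 in stem, 12187 in leaf and 1235 in flower.

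Among the families of the small RNA pathway, miR168 had 136094 normalised tags in fruit, 275829 in root, 128394 in stem, 153348 in leaf and 146459 in flower. With listed totals root was 2.03-fold over fruit and the other tissues lay within 1.13-fold of it. With median-of-ratios scaling flower was highest, 1.93-fold over fruit, and fruit was 1.70-fold over stem. miR162, which targets DCL1, had 2126 in fruit, 5204 in root, 2792 in stem, 2221 in leaf and 1705 in flower. For miR162 and miR168 the sign of the difference between fruit and the mean of the others changed with the scaling, to 0.22 and 0.35 log2 units with miR166 removed from the totals, against -0.49 and -0.37. miR403, which targets AGO2, was listed at 0 in fruit and had 351 tags in root, 372 in stem, 13 in leaf and 7 in flower, and was past 4-fold lower. The list held 13.8% of the tags in fruit, 28.3% in root, 13.2% in stem, 15.6% in leaf and 14.8% in flower, with 0 families higher and 1 lower of 3, beside 7.02% and 29.8% of all families. The median was -0.49 log2 units, against -1.40 over all families.

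Families that act on NLR disease resistance genes in tomato and its relatives did not pass 4-fold with listed totals, with 0 of the 3 listed higher and 0 lower, beside 7.02% and 29.8% of all families. Their median was -1.56 log2 units, against -1.40 over all families. With tags summed over hairpins miR1507 and miR5300 were past 4-fold lower. The difference of miR5300 was -2.04 log2 units, and none is given for miR1507 because its fruit value is listed at 0. miR482 had 2126 normalised tags in fruit, 7005 in root, 3406 in stem, 4256 in leaf and 1307 in flower. miR5300 had 1400 in fruit, 10783 in root, 3632 in stem, 697 in leaf and 1369 in flower, so with listed totals fruit and flower were equal within counting error. Median of ratios multiplies the fold of fruit over flower by 0.557, which puts flower above fruit. miR1507 was listed at 0 in fruit, with 17 tags in root, 27 in stem, 7 in leaf and 14 in flower.

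Of the 4 listed families described from Solanaceae, 2 were past 4-fold lower in fruit (miR5301 and miR4376) and 0 higher, beside 29.8% and 7.02% of all families. Their median was -2.25 log2 units, against -1.40 over all families. The other members were miR5300, given above and 2.01-fold over leaf in fruit (1.75 to 2.31), and miR5303, which had 7 tags in fruit, 5 in root, 9 in stem, 16 in leaf and 6 in flower. miR5301 had 922 tags in fruit, 3902 in root, 18470 in stem, 86558 in leaf and 3793 in flower. After normalisation leaf was 53.9-fold over fruit (50.5 to 57.6), stem 19.6-fold, root 5.69-fold and flower 1.89-fold, so fruit was lowest. With leaf left out of the mean its log2 difference was -3.18, against -4.34 with it. miR4376, which in tomato targets a calcium-pumping ATPase, had 5510 normalised tags in fruit, 23337 in root, 93873 in stem, 51282 in leaf and 672 in flower, with fruit 8.20-fold over flower (7.39 to 9.11) and below the rest. The list held 0.989% of the tags in fruit, 5.10% in root, 15.5% in stem, 21.2% in leaf and 0.764% in flower.

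Of the 57 families 16 were listed at 0 in fruit (28.1%), against 15 in root, 12 in stem, 11 in leaf and 13 in flower. Besides miR403 and miR395 the largest were miRC13 with 560 tags in leaf and 605 in flower, miR1446 with 494 in leaf and 69 each in root and stem, miRC11 with 427 in stem, and miR477 with 194 in root. The candidates miRC18 and miRC5, like miR395, had tags in flower alone and miRC11 in stem alone, so these 4 calls rest on that tissue and their log2 difference was 0 without it. The calls of miR477 and miRC2 ended without root, with log2 differences of -3.32 and -4.91 against a fruit value listed at 0. miR4414 was close to this group, with 5 tags in fruit, 222 in root, 1728 in stem, 274 in leaf and 33 in flower. Among candidates 10 of 23 were listed at 0 in fruit, and among numbered families 6 of 34.

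Fruit also differed in which form of a family was used. In miR156 the sequence of miR156h led in fruit with 3692 of 6911 tags, 53.4% (52.2 to 54.6), against 16.1% in root, 41.1% in stem, 9.10% in leaf and 2.88% in flower. The sequence of miR156a to miR156c made up 33.8% in fruit, against 44.7% in root, 44.3% in stem, 89.1% in leaf and 94.7% in flower. Counted from 1 at the 5′ end of the miR156h form, the second form differs by G12T, T15A and T21C and has the same seed. The 20 nt form of miR156d to miR156f, whose seed lies 1 base further on, held 12.6% in fruit, against 39.1% in root, 14.5% in stem, 1.66% in leaf and 2.43% in flower. In normalised tags the miR156a to miR156c form had 7508 in fruit, 70047 in root, 51234 in stem, 73706 in leaf and 321726 in flower, so fruit was lowest. The miR156h form had 11855 in fruit, 25186 in root, 47444 in stem, 7533 in leaf and 9775 in flower, so fruit lay below root and stem and above leaf and flower. The miR156d to miR156f form had 2803 in fruit, 61293 in root, 16749 in stem, 1377 in leaf and 8266 in flower, and was above fruit in all tissues but leaf.

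The 2 main forms of miR166 differ by C20T. The form of miR166h and miR166i had 43.4% of the miR166 tags in fruit (43.2 to 43.6), against 56.1% in root, 19.7% in stem, 35.3% in leaf and 31.3% in flower. It had 270496 normalised tags in fruit, 203295 in root, 87995 in stem, 113608 in leaf and 127448 in flower. Fruit was its highest tissue except with tags summed over hairpins, where root was. The form of miR166a to miR166g had 344101 in fruit and 350388 in stem, so the lead of miR166 in fruit over stem rested on the miR166h and miR166i form.

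All 3 guide forms of miR396, which differ only in the last base (G21T and G21A against the form of miR396a and miR396b), were highest in fruit under the 4 scalings. The miR396d form had 3134 normalised tags in fruit, 402 in root, 740 in stem, 1217 in leaf and 961 in flower. The miR396c form had 3330 in fruit, 808 in root, 1204 in stem, 1165 in leaf and 1033 in flower. The shared form of miR396a and miR396b had 3616 in fruit, 2155 in root, 3281 in stem, 1751 in leaf and 1385 in flower. The forms took close to equal parts in fruit (31.4%, 28.9% and 27.2% of the family), whereas in root the miR396a and miR396b form had 43.4% and the miR396d form 8.08%. Hairpins miR396a and miR396d lie near each other on chromosome 9 (892542 to 892663 and 882345 to 882564), and miR396b and miR396c on chromosome 7 (23807335 to 23807457 and 23900846 to 23900952).

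In miR172 the form of miR172e and miR172f (T21G against the form of miR172a to miR172d) had 376 tags in fruit, 0 in root, 352 in stem, 40 in leaf and 789 in flower, 22.2% of the family in fruit and 28.2% in flower. The form of miR172h (A1T) had 31 tags in fruit and 3287 in root. In miR390 the form of miR390b had 67.2% in fruit (62.3 to 71.8), against 36.01% in root, 53.9% in stem, 85.1% in leaf and 7.10% in flower. The miR390a form, which differs by A19G, had 88.7% in flower. In miR164 the miR164a form had 87.5% in fruit, close to root (83.6%), stem (89.0%) and flower (91.5%) and unlike leaf (31.97%), where the miR164b form (A15G) led.

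**Figure D3:**
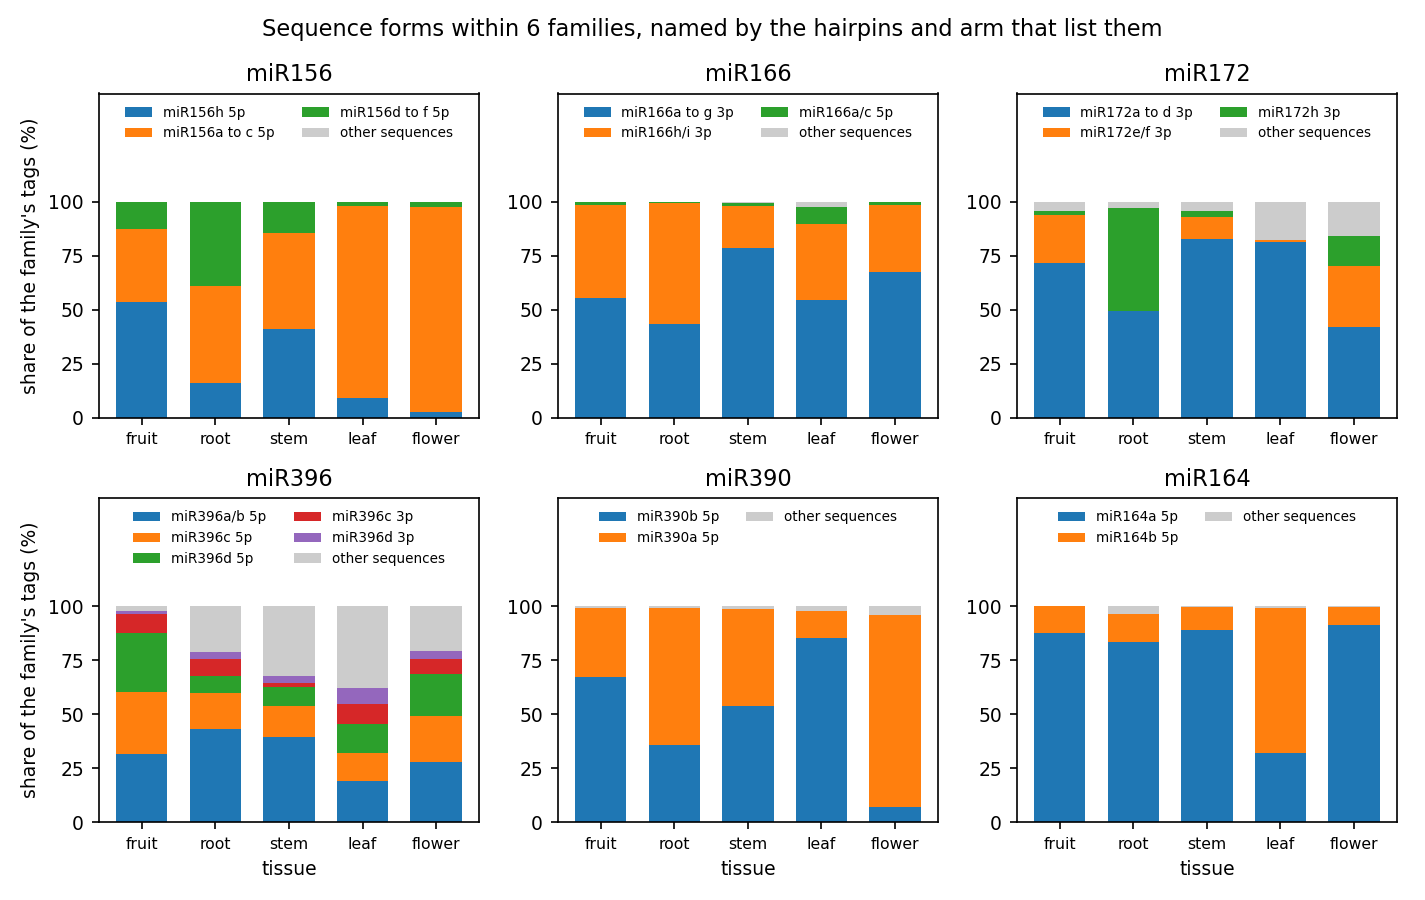
Stacked bars give the share of a family's tags (%) held by its sequence forms in each tissue, for 6 families, with forms named by the hairpins and arm that list them. In fruit miR156h leads miR156 (53.4%) and the 3 guide forms of miR396 have like shares, while miR156 in leaf and flower is nearly all of the form of miR156a to miR156c.

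Where the guide arm is known, guide strands held most of the tags in fruit, as in the other tissues. For 23 families the guide arm is known from other plants, and 19 of them had at least 10 tags in every library. Fruit had the lowest passenger share, or shared the lowest, in 12 of the 19, against 4 in root, 2 in stem, 0 in leaf and 6 in flower. In some of the 12 the gap lay within counting error, as in miR390 with 0.763% in fruit (0.158 to 2.21) and 0.908% in root. The median passenger share over these families was 3.47% in fruit, 5.06% in root, 16.7% in stem, 41.4% in leaf and 15.3% in flower. In miR396 passengers made up 12.5% in fruit (11.5 to 13.6), against 32.3% in root, 37.3% in stem, 54.5% in leaf and 31.4% in flower. In miR162 they made up 6.95% in fruit, against 15.4% in root, 16.7% in stem, 48.3% in leaf and 24.6% in flower. In miR482 they made up 3.47% in fruit, 5.06% in root, 19.2% in stem, 88.6% in leaf and 6.31% in flower. Passengers still outnumbered guides in fruit in 6 of the 20 families with at least 10 fruit tags, miR160, miR171, miR393, miR398, miR399 and miR408. Over all 23 families together the passenger share was 1.84% in fruit, 2.19% in root, 5.30% in stem, 22.8% in leaf and 1.75% in flower, so on this sum fruit and flower were alike. Without miR166 it was 2.62% in fruit and 2.02% in flower.

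Set against single tissues by summed shares, fruit overlapped most with stem and flower, an order that followed the share of miR166. The part of the tags that would overlap, taken as the sum over families of the smaller share, was 68.2% with stem, 66.3% with flower, 62.2% with root and 57.4% with leaf. Most of each sum was miR166 alone, with 44.7% for stem, 40.7% for flower, 36.2% for root and 32.2% for leaf. By rank order over the 57 families the order was another: Spearman's rho was 0.85 with leaf, 0.79 with stem and 0.78 each with root and flower, as a description over families whose values share the library totals. Of families above 0 in both tissues, with listed totals fruit was past 4-fold over flower in 6 and under it in 1, over root in 3 and under it in 12, over stem in 3 and under it in 9, and over leaf in 2 and under it in 7. These counts depend on the scaling. Median of ratios multiplies every fold of fruit over flower by 0.557, over root by 1.33, over stem by 1.60 and over leaf by 1.51. The counts were not repeated with it.

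Median-of-ratios scaling moved flower up by 1.01 log2 units and fruit by 0.17 relative to listed totals. In 44 of the 57 families the sign of the difference between fruit and the mean of the others held under all 4 scalings. In 13 it changed. The 44 include the 16 families listed at 0 in fruit and miRC17, whose sign no scaling could change. All 13 that changed had tags in fruit and elsewhere. Of the 21 families past 4-fold 13 stayed so under all 4 scalings, miRC17 on the higher side and 12 on the lower, among them miR156, miR393, miR403, miR408, miR4376, miR4414 and miR5301. Of the 12, miR1446, miR403, miR477, miRC11, miRC13 and miRC2 were listed at 0 in fruit. Holding under the scalings does not cover the other settings. The call of miRC11 ended without stem, those of miR477 and miRC2 without root, and that of miR393 without leaf (0.55). That of miR408 ended with its guide arm alone (1.10). The miRC17 call has no support from the scalings. Its 18 tags were all in fruit, so it met the minimum of 10 tags through fruit alone, and no scaling could turn its direction. With a minimum of 50 tags it was left out. The median over families was -1.07 with median of ratios, -0.68 with totals without miR166 and -1.55 with tags summed over hairpins, against -1.40 with listed totals. Of the families called, 81.0% were lower with listed totals, 88.9% with median of ratios, 75% with totals without miR166 and 95.5% with tags summed over hairpins.

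**Figure D4:**
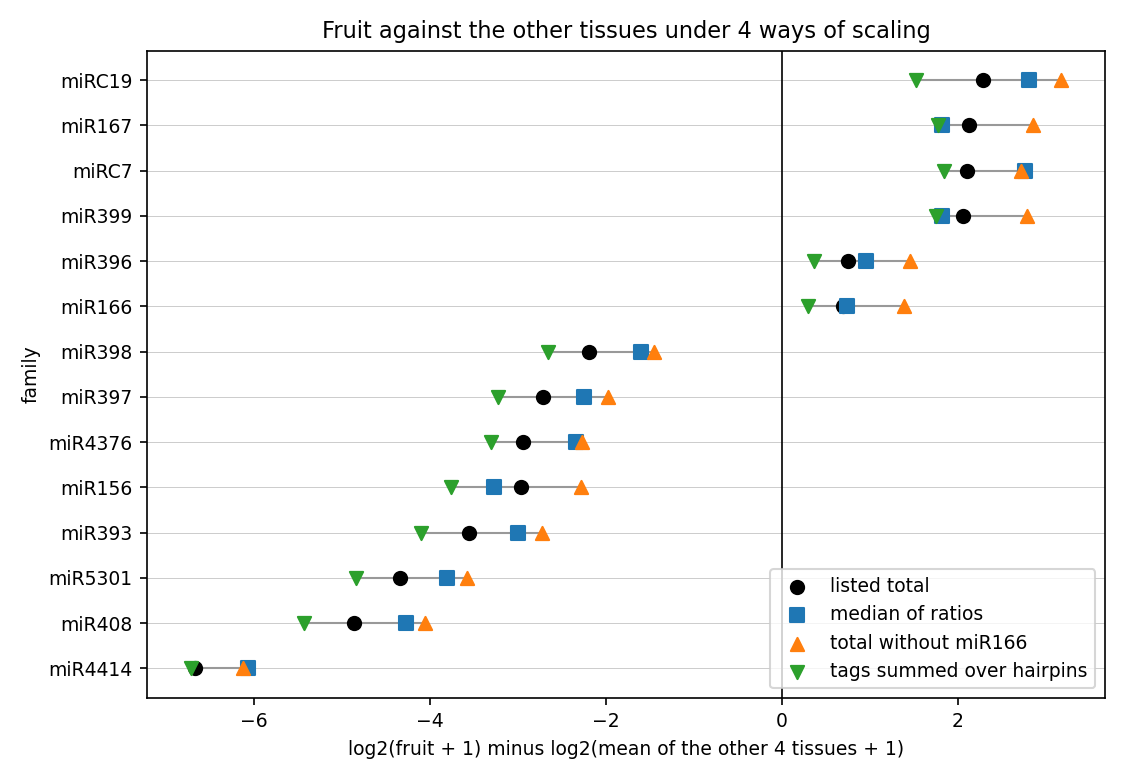
Points give log2(fruit + 1) minus log2(mean of the other 4 tissues + 1) in normalised tags for the families past 4-fold or highest in fruit with tags in fruit and elsewhere, under 4 ways of scaling, joined by a line. No family crosses 0, and for miR167 the values span 1.77 to 2.86.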

How the data were processed

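Per the file headers, the deposited annotation is in GFF version 3, with MIREAP in its plant setting named as the software. The attribute text of each mature line, with no other unit, holds a whole-number tag count for each library, deposited by the authors with no recorded scaling. How reads were trimmed and aligned, to which genome build, and how multiply matching tags were counted is not stated in the labels or the file, and neither is the sequencing depth. Tissues were assigned from attribute names matched to sample titles.

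A family is the number in the parent hairpin's name. Of 36 sequences listed at several lines, 18 had unequal counts, and the highest was taken (alternatives: the lowest, or the sum). Folds are ratios of values per 1000000 listed tags, with 95% intervals from the exact binomial split, and shares have Clopper-Pearson intervals. Families under 10 tags were left out of comparisons. The pseudocount was 1. Guide arms came from textbook knowledge. Scripts ran in Python 3.11.15 with pandas 2.3.3 and scipy 1.17.1 and were tested on simulated counts.

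Families named were the 10 with most fruit tags, those highest in fruit, up to 10 with the largest difference each way, the largest listed at 0, and members of the lists. Other list members, forms and arms were named after their values were seen. Members and lists were chosen with earlier results of these data known.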

Additional observations from a re-analysis of the deposited data

How the results depend on the processing

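No paired analysis was possible because each tissue has 1 library. The count of families past 4-fold higher, 4 with listed totals, was 2 with median-of-ratios scaling, 1 with tags summed over hairpins, 2 with the pooled tags of the other tissues and 2 with stem left out of the mean. It was 3 with root, leaf or flower left out. With guide arms alone, among the 22 families with at least 10 guide tags (miR393 has fewer), 1 was higher in place of 2 and 4 were lower in place of 6. Otherwise the count of lower families stayed between 12 and 24, against 17, the 24 with values listed at 0 taken as 0, an alternative chosen after seeing the data. Families highest in fruit numbered 12 with totals without miR166 and 4 with tags summed over hairpins, against 7. Sequences past 4-fold numbered 7 higher and 28 lower with totals without miR166, against 4 and 44. The cause of these shifts was not tested. The difference turned round for miR393 without leaf (0.55) and for miR408 with its guide arm alone (1.10, from 3 fruit tags). With tags summed over hairpins the development, ripening, nutrient, small RNA pathway, NLR and Solanaceae lists held 94.6%, 20.3%, 0.148%, 3.90%, 0.0960% and 0.270% of the fruit tags. With totals without miR166 the same lists held 48.5%, 84.0%, 1.43%, 36.7%, 0.936% and 2.63%. The unknown depth of the libraries limits what a value listed at 0 can mean.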

Other observations

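Candidates held 3.83% of the tags in fruit, 4.72% in root, 3.89% in stem, 2.26% in leaf and 1.41% in flower, and in every tissue most of these were miRC16. Its hairpin, 211 nt long on chromosome 3 (60757996 to 60758206), lists 6 mature sequences, and the 5′ sequence aAACGTTGaacttgtcggtat had 10959 of its 11026 fruit tags. It had 35406 normalised tags in fruit, 42680 in root, 34694 in stem, 20299 in leaf and 12052 in flower, so fruit, root and stem lay above leaf and flower. miRC29 had 279 tags in fruit, 236 in root, 56 in stem, 137 in leaf and 65 in flower, nearly all of a 23 nt 3′ sequence, and was 2.32-fold higher in fruit than in the mean of the others. Root was its highest tissue after normalisation, with 1019 against 896 in fruit. The interval of fruit over root (0.736 to 1.05) includes equality.

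Sequences of 21 nt held 98.6% of the tags in fruit, 89.3% in root, 87.8% in stem, 94.2% in leaf and 98.6% in flower. Those of 22 nt held 0.945% in fruit, 4.39% in root, 10.2% in stem, 5.32% in leaf and 0.385% in flower, where miR4376, miR482 and miR5300 belong. Sequences of 20 nt, to which the miR156d to miR156f form belongs, held 0.323% in fruit and 6.198% in root. The 3′ arm supplied 63.3% of the tags in fruit, 41.5% in root, 47.0% in stem, 32.1% in leaf and 41.8% in flower.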
